A study of Zea mays with 6 samples.

Results

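A set of 24 probe sets, of the 17555 on a maize expression array, read dim in green leaf tissue and at least 4-fold higher in leaf tissue without chlorophyll. Leaves of the maize inbred line A661 spent 3 weeks in the cold (15 °C) and a further 1 week at 25 °C, and leaf 3 then had a pale distal part and a green proximal part. The section labelled CL held no chlorophyll and the section labelled CC, the control, held chlorophyll; for each section, the 2 cm next to the transition were taken in 3 biological replicates, giving 6 arrays. All 6 arrays come from plants that share the line, the cold period and the later warm week. The labels also give all of them the same light, 228 µmol per square metre and second for 14 h, with 10 h of dark. CL was the distal section throughout, so the effect of pigment content and that of leaf position cannot be told apart. The same holds for whatever else differs along the leaf, such as the age of the tissue or the temperature at which it formed. The labels do not say whether arrays with the same replicate number came from the same plants.

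A probe set belonged to the set when its mean over the 3 CC arrays was under 5 on the log2 scale of the deposited RMA values, its CL mean exceeded its CC mean by at least 2, and every CL array read above every CC array. The members were therefore chosen by the contrast between the sections, and the size and direction of that contrast are given as a description, with no test. No array carried a call of presence or absence that was used here, so a low CC value shows dim signal and does not show that a gene was off. The working name "switched on" is therefore not used. In bulk tissue a change in the number of cells that express a gene and a change in RNA per cell cannot be told apart.

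Several named members belong to pathways that plants use when respiration or oxygen supply is limited. Alternative oxidase passes electrons from ubiquinone straight to oxygen and so lets mitochondria respire without the later proton-pumping complexes. Pyruvate decarboxylase starts ethanol fermentation, and plant haemoglobins of the non-symbiotic kind bind oxygen tightly and remove nitric oxide. Other named members belong to chemical defence, in which grasses make antifungal proteins and diterpenoid phytoalexins.

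The array medians lay between 6.29 and 6.36, and 6344 probe sets had a CC mean under 5, of which the 24 members were 0.378%. Across all probe sets 71 were higher in CL by at least 2 without overlap, so the ceiling on the CC mean kept 33.8% of them. The condition on overlap removed 0 probe sets that met the other conditions. In the opposite direction, 28 probe sets had a CL mean under 5 and were lower in CL by at least 2 without overlap, 35.9% of 78 such falls, while all CC arrays read above all CL arrays in 26.8% of all probe sets. All CL arrays read above all CC arrays in 22.9% of all probe sets, and in 9.14% of those with a CC mean under 5. In the limma fit over all probe sets, 15.9% passed an adjusted p of 0.05 as higher in CL. All 24 members were among these (limma adjusted p from 0.000186 to 0.0181), which the rule used and which therefore adds nothing.

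**Figure D1:**
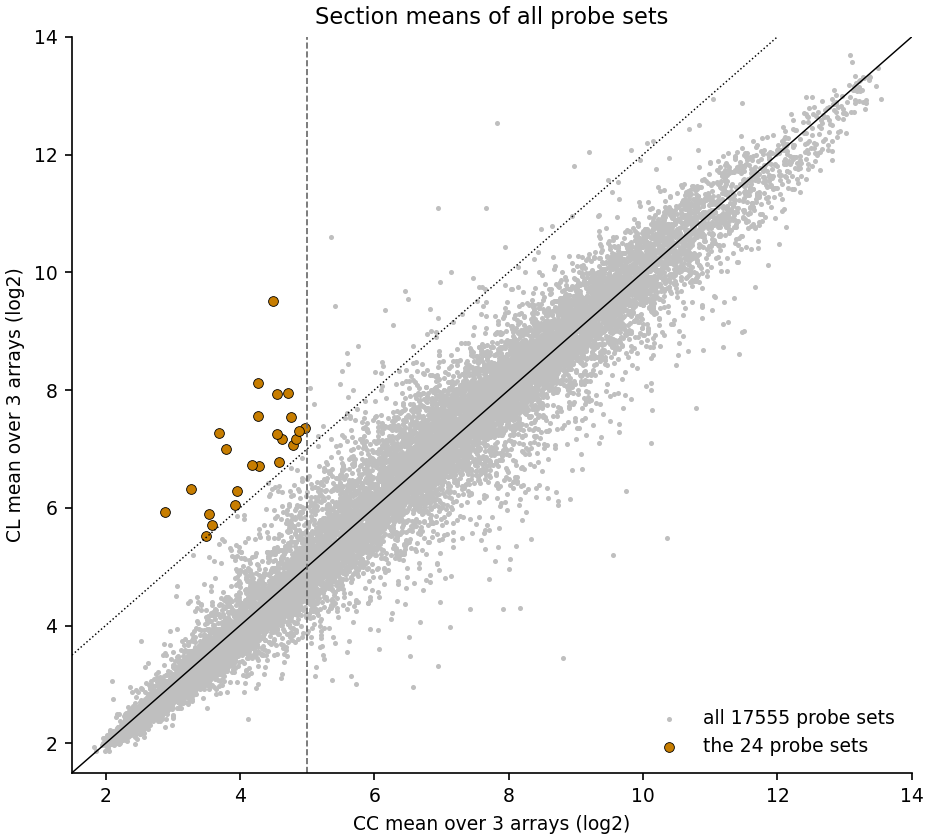
Mean log2 RMA value of each probe set over the 3 CC arrays (x axis) and the 3 CL arrays (y axis), for all 17555 probe sets (grey) and the 24 members (orange). The solid line marks equal means, the dotted line a difference of 2 and the dashed line a CC mean of 5; the members fill the corner left of the dashed line and above the dotted line.

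The CC means of the members ran from 2.88 to 4.97 with a median of 4.28, and their CL means from 5.52 to 9.50 with a median of 7.12. The median difference was 2.54 on the log2 scale, against a median of -0.05 over all probe sets. A CC mean of 5 is at the 36.1st percentile of all CC means, and 9 of the 24 lay in the lowest 25%. In CL, 17 of the 24 had a mean above the median of all CL means, so the set read at the dim end in CC and around the middle of the range in CL. Every CC array stayed under 5 in 13 members, and at least 1 CC array reached 5 or more in the other 11. The lowest CL array lay at least 1 above the highest CC array in 23 members and at least 2 above it in 9, the exception being CPPS2 with a gap of 0.36.

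**Figure D2:**
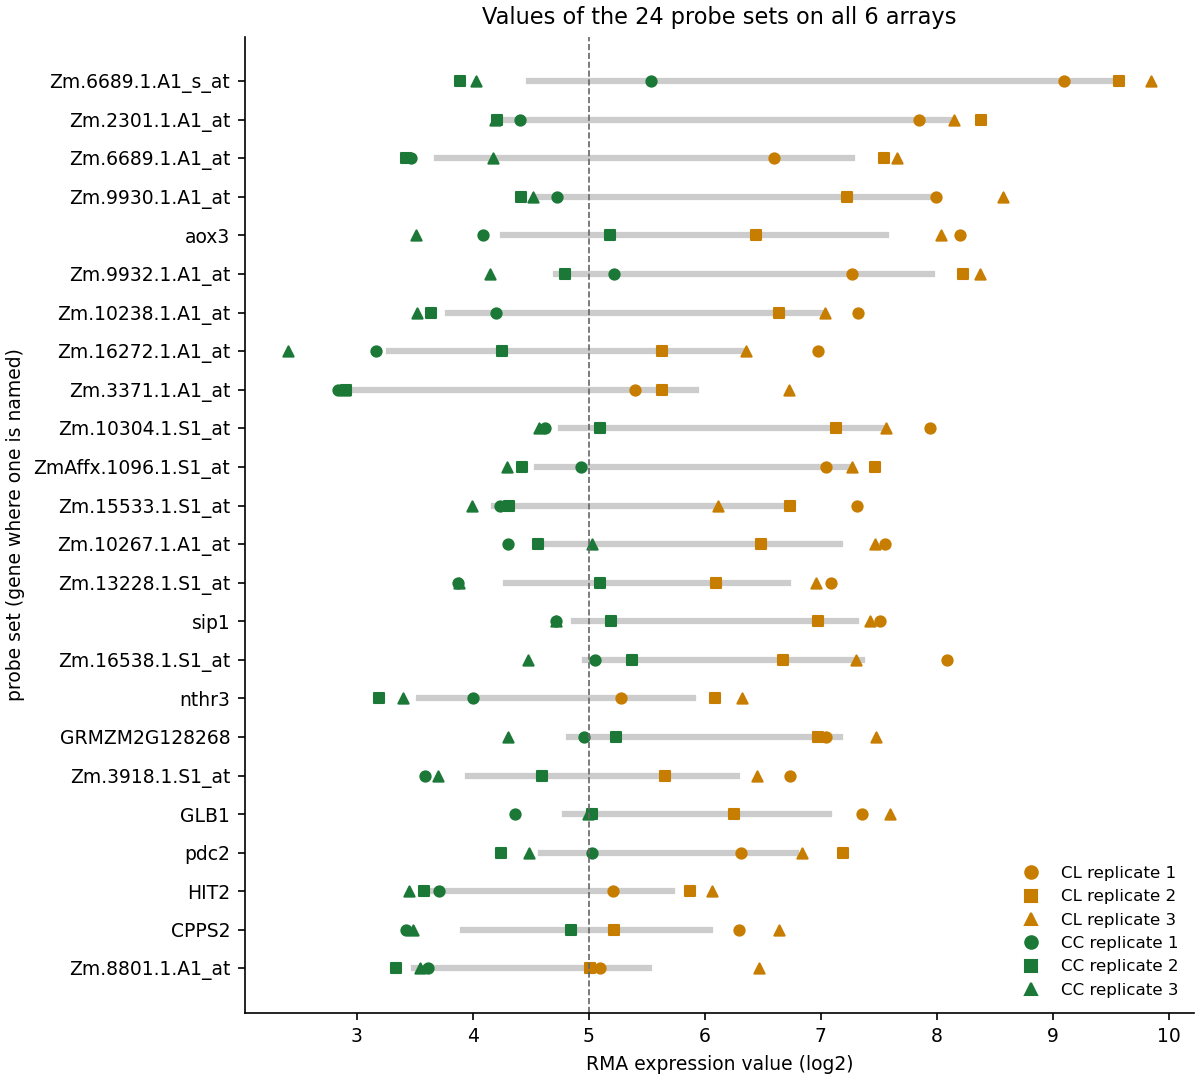
Log2 RMA value of each of the 24 members (rows, ordered by CL mean minus CC mean) on the 3 CL arrays (orange) and the 3 CC arrays (green), with the marker shape giving the replicate number. The grey bar joins the section means and the dashed line marks 5; in every row all orange points lie to the right of all green points, closest in CPPS2.

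The named member with the largest difference was aox3 (NCBI gene 542676), an alternative oxidase gene. Its CL arrays read 8.20, 6.44 and 8.04 and its CC arrays 4.09, 5.18 and 3.52. The sections did not overlap, but replicate 2 was the lowest CL array and the highest CC array. Averaged over 3 arrays (± SD, n = 3), CL gave 7.56 ± 0.97 and CC gave 4.26 ± 0.84, a log2 difference of 3.30 or 9.82-fold.

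The gene pdc2 (NCBI gene 542651), which codes for a pyruvate decarboxylase, read 6.31, 7.19 and 6.84 in CL and 5.03, 4.24 and 4.49 in CC. Here replicate 1 gave the lowest CL and the highest CC value, and the log2 difference was 2.20 (4.58-fold). The 4 probe sets paired with pdc2 disagreed. A probe set with the same base name and the ending s_at differed by 1.73, and Zm.10317.1.S1_at by 0.59 at CL values of 2.75 to 3.11. Both were higher in CL without overlap. Zm.14518.1.A1_at differed by -0.31, with all its CC arrays above all its CL arrays. The mean over the 4 was 1.05, so the size of the difference stated for pdc2 holds for the probe set that met the rule and not for the gene's probe sets in general.

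The third member of this kind, GLB1 (NCBI gene 541815, also named Hb and Hbm), is by those names a haemoglobin gene. Its CL arrays read 7.35, 6.25 and 7.60 and its CC arrays 4.37, 5.03 and 4.99. The CL array of replicate 2 lay more than 1 below the other CL arrays, while the CC arrays spread by less, and the log2 difference was 2.27 (4.83-fold).

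Among the defence genes, CPPS2 (NCBI gene 542165, also named an2 and ZmAN2) codes for an ent-copalyl diphosphate synthase, which makes the precursor of maize diterpenoid phytoalexins. It read 6.29, 5.22 and 6.64 in CL and 3.42, 4.85 and 3.49 in CC. On replicate 2 the sections almost met, and the SD was 0.74 in CL and 0.81 in CC around a difference of 2.13 (4.37-fold). CPPS2 met the rule in 3 of the 6 sets of arrays that leave 1 array out, fewer than any other member.

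The gene sip1 (NCBI gene 542299), also named Zlp, a name used for zeamatin-like antifungal proteins, was measured by a pair of probe sets. The member read 7.51, 6.98 and 7.42 in CL and 4.72, 5.19 and 4.72 in CC, a tight group in either section and a difference of 2.43 (5.37-fold). The other, with the ending s_at, read 9.60, 9.39 and 9.68 in CL and 6.33, 7.30 and 5.86 in CC, and its difference was 3.06. Its CC mean of 6.50 kept it out of the set, so the dim CC signal of sip1 was seen on 1 of its probe sets and not on the other.

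Named members without a role stated here were nthr3, HIT2 and GRMZM2G128268. The gene nthr3 (NCBI gene 542005, also named MZm3-3) read 5.28, 6.09 and 6.32 in CL and 4.01, 3.20 and 3.40 in CC (difference 2.36). HIT2 (NCBI gene 541689) read 5.21, 5.87 and 6.06 against 3.71, 3.58 and 3.46 (difference 2.13). In both, replicate 1 was the lowest CL and the highest CC array. GRMZM2G128268 (NCBI gene 542088) read 7.04, 6.98 and 7.47 in CL and 4.96, 5.23 and 4.30 in CC (difference 2.33), with no overlap between the sections.

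No gene was named for 16 of the 24 members (66.7%), compared with 91.7% of all probe sets and 92.5% of those with a CC mean under 5. Conversely 33.3% had 1 named gene (95% Wilson interval 18.0% to 53.3%, which treats members as independent), compared with 8.27% and 7.50%. Members share the arrays that chose them, and a pair of them shares a base name, so the interval is no test against those shares. The higher share came from members with smaller differences. With a floor of 2.5 on the difference it was 7.69%, and it was 0% where every same-numbered difference was at least 2. Among the 47 other probe sets that were higher in CL by at least 2, the share was 29.8%. The named ones there had differences from 2.01 to 5.24, so they were not confined to smaller ones. The difference in share from the members was not tested. The annotation used was an older one, and an unnamed probe set is unnamed here and not without a gene. Identifiers beginning ZmAffx made up 8.33% of the members (2 of 24), 12.4% of all probe sets, 24.3% of those with a CC mean under 5 and 2.13% of the 47 other probe sets higher in CL by at least 2. The endings s_at, x_at or a_at, which mark probe sets that can match more than 1 transcript, made up 4.17% of the members, 12.5% of all probe sets and 8.23% of those with a CC mean under 5.

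The largest differences belonged to unnamed members. Zm.6689.1.A1_s_at read 9.10, 9.57 and 9.84 in CL and 5.54, 3.89 and 4.03 in CC, a log2 difference of 5.02 (32.4-fold). Its CC SD of 0.91 came from replicate 1, more than 1.5 above the other CC arrays. Zm.6689.1.A1_at, which shares its base name and so is not independent of it, read 6.60, 7.55 and 7.66 in CL and 3.47, 3.43 and 4.17 in CC (difference 3.58).

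The second largest difference came with little spread between arrays. Zm.2301.1.A1_at read 7.84, 8.38 and 8.14 in CL and 4.41, 4.21 and 4.19 in CC, a difference of 3.85 (14.4-fold) with SDs of 0.27 and 0.12. Zm.3371.1.A1_at read 2.84, 2.91 and 2.90 in CC and 5.40, 5.63 and 6.73 in CL (difference 3.04). Its CC arrays were nearly equal while CL replicate 3 lay more than 1 above the other CL arrays.

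Further unnamed members with differences above 3 were Zm.9930.1.A1_at at 3.37, Zm.9932.1.A1_at at 3.23, Zm.10238.1.A1_at at 3.21 and Zm.16272.1.A1_at at 3.04. Zm.10304.1.S1_at followed at 2.78 with a CL mean of 7.54, and ZmAffx.1096.1.S1_at at 2.71. A second probe set with the base name of ZmAffx.1096.1.S1_at, ZmAffx.1096.1.A1_at, differed by 0.94 without overlap at CC values of 3.25 to 3.66; no other unnamed member had a probe set of the same base name outside the set. The remaining 6 unnamed members had differences from 2.02 to 2.54.

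At the edges of the rule the values were continuous. Just inside the ceiling were Zm.16538.1.S1_at with a CC mean of 4.97, sip1 with 4.88 and GRMZM2G128268 with 4.83. Just outside it were pdc3, another pyruvate decarboxylase gene, with 5.04 and a difference of 2.99, saf1 with 5.10 and 2.67, and Zm.2661.1.S1_at with 5.16 and 2.06. Just inside the floor were Zm.8801.1.A1_at with a difference of 2.02, CPPS2 and HIT2; just outside were Zm.9635.1.A1_at with 1.99, Zm.9635.1.A1_a_at with 1.92 and the probe set named AGAMOUS with 1.91.

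The order of arrays within a section was not used by the rule, and it split the members. Replicate 2 was at once the lowest CL and the highest CC array in 10 of 24 members (41.7%), compared with 14.6% of all probe sets and 10.7% of those with a CC mean under 5. These 10 included aox3, GLB1, CPPS2, sip1 and GRMZM2G128268, with Zm.16272.1.A1_at, Zm.10304.1.S1_at, Zm.13228.1.S1_at, Zm.16538.1.S1_at and Zm.3918.1.S1_at. Replicate 1 held that place in 7 members (29.2%, compared with 23.8% and 11.0%), namely pdc2, nthr3, HIT2, Zm.6689.1.A1_s_at, Zm.2301.1.A1_at, Zm.9932.1.A1_at and ZmAffx.1096.1.S1_at. Replicate 3 held it in 0 members, compared with 12.3% of all probe sets and 15.2% of those with a CC mean under 5. The lowest CL and the highest CC array shared a number in 17 members (70.8%), compared with 50.6% and 36.8%, and same-numbered arrays deviated in opposite directions over all probe sets (correlations of -0.35 to -0.54). All 8 named members were among the 17, 5 under replicate 2 and 3 under replicate 1.

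In the 47 other probe sets higher in CL by at least 2, replicate 1 held that place in 36.2%, replicate 2 in 27.7% and replicate 3 in 0, so there replicate 1 came before replicate 2. The difference between these sets was not tested. Members share the 6 arrays and are no replicates of each other, so these shares carry no test.

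**Figure D3:**
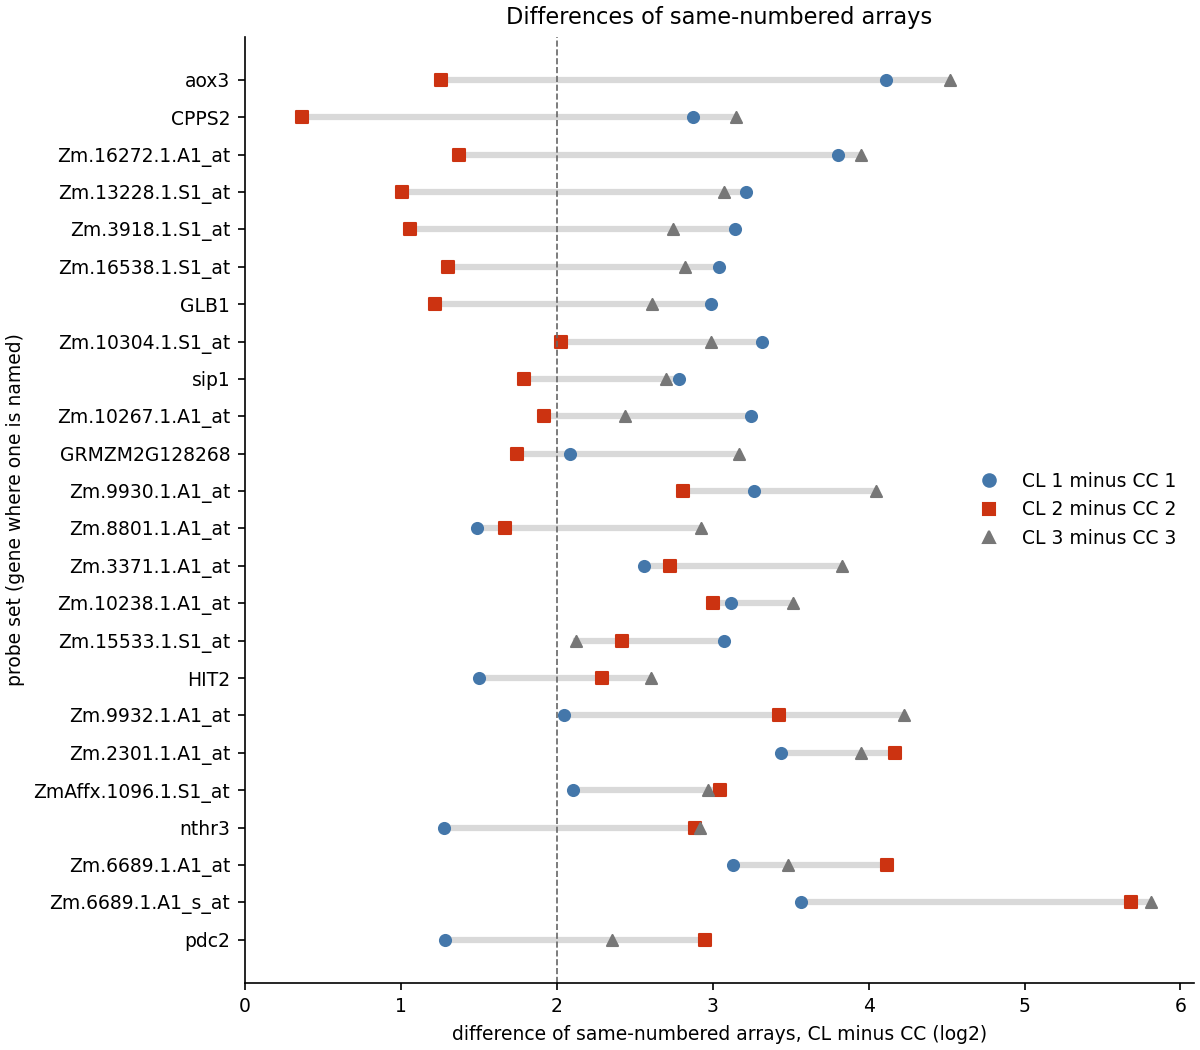
Difference between the CL and the CC array of the same replicate number (x axis, log2) for each of the 24 members, ordered by how far replicate 2 lies below the mean of the other replicates. The dashed line marks 2; aox3 and CPPS2 at the top have their smallest value under replicate 2 (1.26 and 0.36), and pdc2 at the bottom under replicate 1 (1.28).

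Differences of same-numbered arrays made this visible. For aox3 they were 4.11, 1.26 and 4.52 under replicates 1, 2 and 3, and for CPPS2 they were 2.87, 0.36 and 3.15. For pdc2 they were 1.28, 2.95 and 2.35. The median over the members was 3.06 under replicate 1, 2.16 under replicate 2 and 3.03 under replicate 3. All 3 differences were at least 2 in 10 members, all of them unnamed, so each named member had a smaller difference on at least 1 replicate number.

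Leaving out an array gives values of that array that the choice did not use. The arrays it is set against were still those the rule had chosen on, so the counts are a description and the shares over all probe sets are not a matched background. When the rule was applied without CL replicate 2, 30 probe sets met it, and CL replicate 2 then read above every CC array in 30 of them, as it did in 35.6% of all probe sets. The median excess of that array over the CC mean was 2.13, and it was 2 or more in 16 of the 30. Without CL replicate 3 all 21 probe sets chosen had that array above every CC array (33.9% of all probe sets), with a median excess of 2.80, and without CL replicate 1 it was 30 of 31 (30.2%).

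For left-out CC arrays the counts below every CL array were 29 of 30 for replicate 1 (31.6% of all probe sets), 29 of 30 for replicate 2 (34.0%) and 23 of 23 for replicate 3 (36.3%). The left-out CC array itself read under 5 in 21, 19 and 20 of these. Of the 24 members, 16 met the rule whichever array was left out, among them aox3, sip1 and nthr3. The other 8 were lost under at least 1 omission. They were the named members GRMZM2G128268, GLB1, pdc2, HIT2 and CPPS2, and the unnamed Zm.9932.1.A1_at, Zm.16538.1.S1_at and Zm.8801.1.A1_at.

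The other genes of the named members' pathways were taken from lists by name. Genes were matched by symbol or synonym and represented by their brightest probe set, with limma adjusted p over all probe sets; over all 1108 genes 18.7% passed as higher and 19.9% as lower in CL, and the median difference was -0.08. Genes with a member probe set were left out of the list counts, since the rule had chosen them by this difference. Besides aox3, 2 of 3 alternative oxidase and uncoupling genes passed as higher and 1 as lower, with a median difference of 0.64. An aox1 gene (NCBI gene 542074, also named aox2) rose by 2.09 (SE 0.30, adjusted p = 0.00475) from a CC mean of 9.47. The other aox1 (NCBI gene 542073) rose by 0.64, and the uncoupling protein gene PUMP fell by 0.38.

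Besides pdc2, 1 of 4 fermentation genes passed as higher and 0 as lower, with a median difference of -0.32. This gene, pdc3, read 8.06, 7.91 and 8.13 in CL and 5.15, 4.97 and 5.01 in CC, and its CC mean of 5.04 kept it out of the set. The pyruvate decarboxylase gene pdc1 differed by -0.07, at a dim signal of 3.17 to 3.41 on all arrays. The alcohol dehydrogenase genes adh1 and adh2, which complete ethanol fermentation, differed by -0.57 and -0.90 (limma adjusted p = 0.0632 and 0.0687).

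Besides sip1, 4 of 5 wound and pathogenesis-related genes passed as higher and 1 as lower, with a median difference of 2.01. The proteinase inhibitor gene wip1 rose by 4.14 from a CC mean of 6.95, prp4 by 2.01 from 8.95 and pr5 by 2.09 from 10.2, each above the ceiling. On wip1, prp4 and pr5 replicate 2 was the highest CC array, as on sip1 and CPPS2. It was also the highest on chn1 and on prp2, the gene that fell. CC replicate 2 was the highest in 28.8% of all probe sets, 38.3% of the 47 other probe sets higher in CL by at least 2 and 50% of the members.

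**Figure D4:**
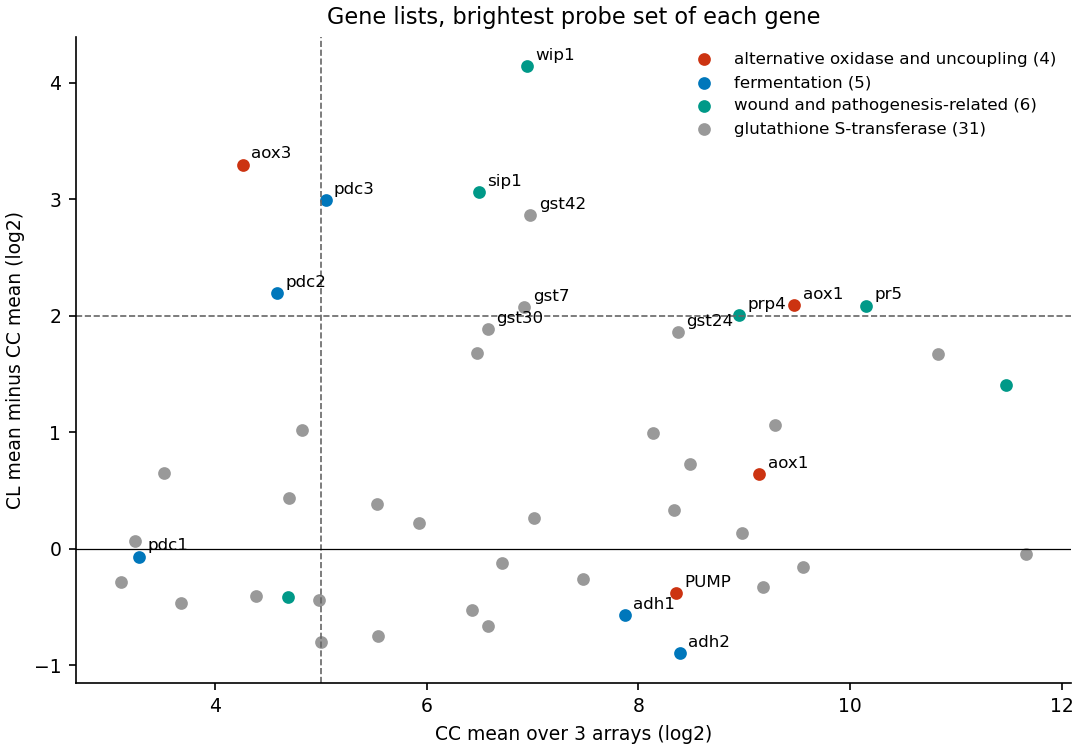
CL mean minus CC mean (y axis, log2) against CC mean (x axis, log2) for genes of 4 lists, each by its brightest probe set. The dashed lines mark the ceiling of 5 and the floor of 2; aox3 and pdc2 lie in the upper left field, while wip1, gst42, 1 of the aox1 genes, prp4, pr5 and sip1's brightest probe set lie above 2 at brighter CC signal.

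Of 31 glutathione S-transferase genes 11 passed as higher and 7 as lower (median difference 0.22). Of these genes 8 had a CC mean under 5 and 0 met the rule. Over all 1108 genes only 8 met it, as did 0.378% of the probe sets with a CC mean under 5. A count of 0 in a list of this size, here and below, therefore says nothing about the list. The jasmonate list (9 genes, 2 higher and 2 lower, median 0.12), the asparagine and glutamine synthetase list (7 genes, 2 and 1, median -0.05), the cytosolic glyceraldehyde-3-phosphate dehydrogenase list (4 genes, 4 and 0, median 0.96), the heat shock list (10 genes, 5 and 0, median 0.67), the nitrate list (5 genes, 0 and 2, median -0.72) and the cell wall growth list (34 genes, 1 and 20, median -0.85) held 0 members each. The asparagine synthetase gene asn1 missed the ceiling, with a CC mean of 5.36 and CC arrays at 7.34, 4.20 and 4.52.

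Markers of leaf cell types were summed on the linear scale. The mesophyll list (4 of 5 found) gave 26769 to 27224 in CL and 25952 to 26504 in CC, and its gene ppt1 was higher in CL by 0.75 (limma adjusted p = 0.00645). The sum rests mostly on the brighter genes of the list. The bundle sheath list (3 of 5 found) gave 19967 to 20343 in CL and 21064 to 21735 in CC, with rca1 lower by a difference of -0.32 (limma adjusted p = 0.0294). The epidermis and wax list (3 of 6 found) gave 484 to 628 in CL and 536 to 930 in CC, with gl1 and gl15 lower in CL by log2 differences of -1.73 and -0.33 (limma adjusted p = 0.00285 and 0.0277). The vascular marker sut1 (1 of 4 found) gave 787 to 1304 in CL and 1413 to 2034 in CC, a difference of -0.87 (limma adjusted p = 0.0256). Markers of dividing cells (3 of 4 found) summed to 252 to 272 in CL and 160 to 176 in CC, and cycD2 (0.73) and pcna2 (0.51) passed as higher in CL, while the meristem gene kn1 stayed between 3.48 and 3.71 on all arrays. The values of gl15 (3.11 to 3.55) and kn1 lay in the lowest 25% of every array, whose upper limits were 3.95 to 4.15. The signal of these 2 genes was therefore dim, and the small difference of gl15 is to be read with that limit. The part of the markers in the members' values was not tested.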

How the data were processed

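The deposited table held log2 RMA expression values for 17555 probe sets on 6 arrays, with no missing value; the submitters' processing notes list RMA, limma and Affymetrix Expression Console without a role or version. RMA corrects for background, quantile-normalizes the arrays and summarises probes, which compresses differences at the dim end where the members lie. Labelling was from the 3' end with 250 ng RNA, per the labels' protocols. Arrays were grouped by their labels, and 0 columns per sample were unused.

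The rule, spreads and orders were computed in Python 3.11.15 with pandas 2.3.3. The fit over all probe sets was limma 3.58.1 in R 4.3.3, without a block or filter, with Benjamini-Hochberg adjustment and a threshold of 0.05. On simulated data with 17555 probe sets and 200 changed ones it recovered 94.7% of changes of 2 and made on average 10 false calls per run. A permutation test of 3 against 3 arrays cannot give a p under 0.1, and precision is limited by the number of arrays.

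Genes were named for 1452 probe sets paired with 1 gene (1108 genes, 1060 of them in the RefSeq table used to update names). The text names every member with 1 gene, the other probe sets of those genes, the 10 unnamed members with the largest difference and the 5 with the highest CL mean, and the 3 probe sets on each side of a threshold; unnamed members of the replicate patterns and list genes outside this were named after their values were seen. The members and lists were chosen with earlier results of these data known. Promoter motifs were not analysed here.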

Additional observations from a re-analysis of the deposited data

How the results depend on the processing

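The number of members depended on the thresholds: 14 with a ceiling of 4.5, 71 with no ceiling, 48 with a floor of 1.5 and 13 with a floor of 2.5, against 24. The share with 1 gene named was 7.69% with a floor of 2.5, and the median difference was 2.01 with a floor of 1.5 and 3.21 with a floor of 2.5. A ceiling of 5.5 gave 31, median centring 23 and a further quantile normalization 26 probe sets, and no condition on overlap gave the same 24. Same-numbered arrays deviated in opposite directions (correlations of their deviations from the section means over all probe sets were -0.54, -0.35 and -0.39). The labels do not say whether the numbers mark pairs, so the main fit did not use them. With such correlations a fit without a block can understate the error of the difference between sections. Requiring each same-numbered difference to be at least 2 is a stricter filter than a floor on the difference of means. It left 10 probe sets, of which 0% had a gene named, with a median difference of 3.22. A replicate block in the limma fit gave 1020 higher and 850 lower probe sets instead of 2789 and 2668.

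With 1 array left out, 21 to 31 probe sets met the rule, 23.3% to 30.0% of them had a gene named, the median difference was 2.37 to 2.70, and CC replicate 1 was the highest CC array in 30.0% to 48.4% (41.7% with all arrays; not computed without a CC array). The limma counts were then 1308 to 2818 higher and 1082 to 2865 lower: 1308 and 1082 without CL replicate 3, 1663 and 1371 without CC replicate 2, 1840 and 1484 without CL replicate 2, 1821 and 1669 without CC replicate 3. Between 23 and 24 members passed. An adjusted p of 0.01 gave 1126 higher and 867 lower. Of 50 values of single named genes under an alternative, 48 moved by less than the spread between replicates and 0 changed sign. These 48 all came from leaving out 1 array, where neither outcome could differ. The mean of 3 arrays cannot move by more than their SD, and the rule had put every CL array above every CC array. The other alternative, the mean over probe sets, moved sip1 to 2.74 and pdc2 to 1.05. The arrays give no probe-level background here, so signal over background could not be set beside the dim values.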
